A study of Rattus norvegicus with 18 samples.

Results

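The genes described here encode the enzymes of glycolysis, the carriers that move glucose and lactate across the cell membrane, and a set of further genes known to respond to low oxygen. They form a list of 40 genes set by name and known function. The rule uses no measured value, but the list was drawn up with earlier results of these data known. The list holds 23 glycolytic enzymes and regulators of the pathway, 5 transporters and 12 hypoxia genes, out of 12198 genes named on the larger of 2 array designs. On that design 38 of the 40 had a probe and 37 passed the filter on low signal. Tpi1 and Pgam2 had no probe there, and Pfkfb4 fell below the filter. The smaller design carried 31 of them and lacked Gpi, Pfkp, Aldoa, Tpi1, Pgam2, Pfkfb3, Bnip3, Car9 and Ddit4.

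Expression was measured in cultured cardiomyocytes (heart muscle cells) of the rat, from ventricles of day 1 pups (n = 24) that were Percoll purified and kept for 24 h in cardiac medium. The 5 groups were time zero, extracted at the end of those 24 h (6 samples), and 4 groups of 3 samples each. In these the cardiac medium was diluted to 50% with hESC medium, either unconditioned or conditioned by stem cells, FBS stayed at 5% and HS at 10%, and RNA was taken after 24 h or 48 h. By its title, the series concerns factors that stem cells secrete and the proliferation of cardiomyocytes. Time zero differs from the other groups in both culture time and medium, since no group stayed in undiluted cardiac medium. Each sample is 1 array: the larger design has 4 time zero arrays and 2 of each medium group, the smaller has 2 and 1. The design text counts 18 dishes, as many as there are arrays, and names 1 harvest of cells. The replicates thus read as dishes of a single preparation, so each p-value reflects how much these dishes and arrays vary, which may be technical, and not how preparations vary.

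Glycolysis breaks glucose down to pyruvate in the cytosol, and lactate dehydrogenase turns pyruvate into lactate, so that the cell gains ATP without oxygen. The newborn heart relies strongly on this route and shifts towards fatty acid oxidation as it matures. Several steps are catalysed by isozymes whose muscle forms (Pfkm, Eno3) stand beside forms found widely (Pfkp, Pfkl, Eno1). Among the glucose carriers, Slc2a4 of muscle likewise stands beside the widely found Slc2a1. Hypoxia-inducible factor 1, whose alpha subunit is the product of Hif1a, is degraded when oxygen is present, after prolyl hydroxylases such as those encoded by Egln1 and Egln3 have marked it. When stable it binds short DNA elements with the core ACGTG or GCGTG near many glycolytic and angiogenic genes.

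Promoter sequences of 300 bases around the annotated start, from RefSeq on build GRCr8, were found for 36 of the 40 genes and not for Pgk1, Slc2a3, Slc2a4 and Ndrg1. The core ACGTG, searched on both strands, was in 21 of the 41 promoters of these genes (51.2%) and in 19.3% of all 33469 promoters of that length. ACGTG or GCGTG was in 25 of 41 (61%) and in 41.6% of all. Of the promoters of glycolytic enzymes 11 of 26 held ACGTG, of transporters 2 of 3, and of hypoxia genes 8 of 12. The list contains many genes that are known for such elements, so these shares describe the list and no test was made. The promoters below are those of the 4 enzyme genes that passed the test in a comparison (Aldoc, Pfkp, Pfkfb1 and Pfkfb2) and of Ldha, which held the most matches of all and passed the test in no comparison. They are written 5′ to 3′ on the strand of the gene, which is the minus strand for Pfkfb2 and the plus strand for the other 4. Capitals mark ACGTG and GCGTG on either strand (reversed, CACGT and CACGC), where a CACGTG counts as a match on both strands.
Aldoc, chr10:63715294-63715593: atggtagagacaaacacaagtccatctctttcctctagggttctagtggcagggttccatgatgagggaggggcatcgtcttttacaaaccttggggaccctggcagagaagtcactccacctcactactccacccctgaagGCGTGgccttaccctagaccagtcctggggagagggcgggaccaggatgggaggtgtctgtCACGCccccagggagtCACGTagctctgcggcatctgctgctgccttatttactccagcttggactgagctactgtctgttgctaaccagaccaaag
Pfkp, chr17:68639563-68639862: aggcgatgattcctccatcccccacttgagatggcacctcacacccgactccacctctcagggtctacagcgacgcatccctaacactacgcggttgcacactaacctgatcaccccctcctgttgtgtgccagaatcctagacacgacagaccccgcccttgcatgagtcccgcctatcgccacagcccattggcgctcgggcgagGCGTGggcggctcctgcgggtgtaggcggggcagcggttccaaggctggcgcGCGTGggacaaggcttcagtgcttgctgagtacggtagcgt
Pfkfb1, chrX:22941926-22942225: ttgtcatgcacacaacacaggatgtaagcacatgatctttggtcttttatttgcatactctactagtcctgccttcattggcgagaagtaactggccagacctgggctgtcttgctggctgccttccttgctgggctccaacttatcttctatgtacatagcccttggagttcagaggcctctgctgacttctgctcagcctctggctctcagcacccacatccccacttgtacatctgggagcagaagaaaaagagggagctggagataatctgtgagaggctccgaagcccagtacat
Pfkfb2, chr13:44726922-44727221: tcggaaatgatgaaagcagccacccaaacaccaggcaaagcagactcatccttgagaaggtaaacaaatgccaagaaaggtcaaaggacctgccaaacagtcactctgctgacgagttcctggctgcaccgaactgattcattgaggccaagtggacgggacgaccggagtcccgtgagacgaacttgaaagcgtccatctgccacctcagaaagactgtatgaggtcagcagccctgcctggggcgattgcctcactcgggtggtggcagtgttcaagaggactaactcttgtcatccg
Ldha, chr1:106507842-106508141: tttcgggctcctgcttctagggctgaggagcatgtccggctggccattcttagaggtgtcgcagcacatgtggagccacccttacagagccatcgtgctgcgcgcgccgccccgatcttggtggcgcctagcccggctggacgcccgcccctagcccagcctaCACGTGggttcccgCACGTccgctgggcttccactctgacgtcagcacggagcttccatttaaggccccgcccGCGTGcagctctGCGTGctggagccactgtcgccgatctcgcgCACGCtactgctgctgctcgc
The Aldoc promoter held 3 matches, that of Pfkp 2, that of Ldha 6 and those of Pfkfb1 and Pfkfb2 none, which says only that these letters are not in those windows.

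Intensities below are linear values after each array was scaled to a common median, and the values of a group are given array by array. A change is a difference of log2 intensity ± SE from a limma fit over the 12 arrays of the larger design, less the median change of all 23694 probes tested, which lay between 0.01 and 0.19. A gene was called where limma's adjusted p (Benjamini-Hochberg over all probes) was under 0.05, and that p tests the change before the median is subtracted. Among the arrays of the larger design, unconditioned 48 h replicate 2 and time zero replicates 4 and 5 stood apart, with a narrower span of intensities (the 75th percentile was 22.4 to 25.7 times the 25th, against 38.7 to 47.8 times on the other 9). Their part in the results was not tested, and results of the members that rest on them are given with and without them. Of the 12 cardiomyocyte markers 10 were on the larger design, all 10 were above the floor on all arrays (Tnnt2 between 14850 and 36251), and none was called in any comparison. RNA came from whole cultures, so a change in the number of cells of a type and a change in RNA per cell cannot be told apart.

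In conditioned against unconditioned medium over both times, Ndrg1 and Aldoc were higher and no member was called lower. Ndrg1, a stress-responsive gene known as a target of hypoxia-inducible factor, was 3.74-fold higher, and Aldoc, the aldolase of brain and a minor form in muscle, was 2.98-fold higher. These were 2 of 37 members tested (5.41%), beside 0.92% of all probes. When all probes of a gene were averaged, 2 members were called as well, beside 1.51% of 9953 genes. With quantile normalization in place of median scaling 5 members were called, 3 higher (Eno1 added) and 2 lower (Pfkm and Slc16a3), beside 3.89% of probes. Without the 3 arrays that stand apart 8 were called, 5 higher (Aldoc, Eno1, Ndrg1, Adm and Hif1a) and 3 lower (Pfkm, Slc2a4 and Slc16a3), beside 7.8%. The median change of the 37 members was 0.03, with 19 members above and 18 below the median of all probes.

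Ndrg1 read 592 and 572 in conditioned medium at 24 h and 743 and 722 at 48 h. In unconditioned medium it read 116 and 211 at 24 h and 139 and 216 at 48 h, and at time zero 226, 108, 117 and 186. All 4 conditioned arrays lay above all other arrays, and all 4 unconditioned arrays lay in the range of time zero. The change between the media was 1.90 ± 0.30 over both times (limma adjusted p = 0.0018), and 1.85 without the 3 arrays that stand apart. It was 1.89 ± 0.42 at 24 h (limma adjusted p = 0.08) and 1.90 ± 0.42 at 48 h (limma adjusted p = 0.06). Neither time passed on its own with the probe used, although both did with quantile normalization (adjusted p = 0.03 and 0.034). A second tested Ndrg1 probe gave 1.98 over both times, with an adjusted p of 0.00093. That probe passed at 24 h with median scaling (2.07, limma adjusted p = 0.034) and not at 48 h (1.87, limma adjusted p = 0.055). Against time zero Ndrg1 rose in conditioned medium at 24 h (1.76 ± 0.36, limma adjusted p = 0.0047) and at 48 h (2.11 ± 0.36, limma adjusted p = 0.00072), and the changes in unconditioned medium were -0.14 ± 0.36 and 0.18 ± 0.36.

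Aldoc read 545 and 543 in conditioned medium at 24 h and 702 and 922 at 48 h. In unconditioned medium it read 205 and 270.0 at 24 h and 152 and 227 at 48 h, and at time zero 514, 216, 308 and 299.9. The conditioned arrays were the 4 highest of the 12, with time zero replicate 3 close beneath the 24 h pair, while the unconditioned arrays lay within or below the range of the other time zero arrays. The change between the media was 1.58 ± 0.28 over both times (limma adjusted p = 0.005), 1.20 ± 0.40 at 24 h (limma adjusted p = 0.5) and 1.94 ± 0.40 at 48 h (limma adjusted p = 0.041). The call over both times held without the 3 arrays that stand apart (1.54, adjusted p = 0.0017) and in each run that left out 1 array. This call ended when no probe was filtered out, with an adjusted p of 0.052. The call at 48 h ended without any 1 of 8 arrays, with changes between 1.76 and 2.10. Those arrays are time zero replicate 5, both unconditioned and both conditioned 24 h arrays, unconditioned 48 h replicate 2 and both conditioned 48 h arrays.

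Eno1, the enolase found in most tissues and the embryonic form in heart, followed the same order without passing the test. Eno1 read 8222 and 8019.9 at 24 h and 5919 and 5930.1 at 48 h in conditioned medium. It read 4730.4 and 4870.2 at 24 h and 1409 and 2520.0 at 48 h in unconditioned medium, and 3968, 2496, 3567 and 6260.3 at time zero. Conditioned arrays lay above unconditioned ones at each time, and the 48 h unconditioned pair held the lowest value of all 12 arrays. The change was 1.12 ± 0.29 over both times, or 2.17-fold (limma adjusted p = 0.06), and 0.75 at 24 h and 1.48 at 48 h. The adjusted p over both times was 0.0013 with quantile normalization and 0.0043 without the 3 arrays that stand apart. A second bright Eno1 probe gave 1.08 and a dim one, between 0.0001 and 174 in intensity, gave -1.47, and with all probes of the gene averaged the change was 0.18.

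**Figure D1:**
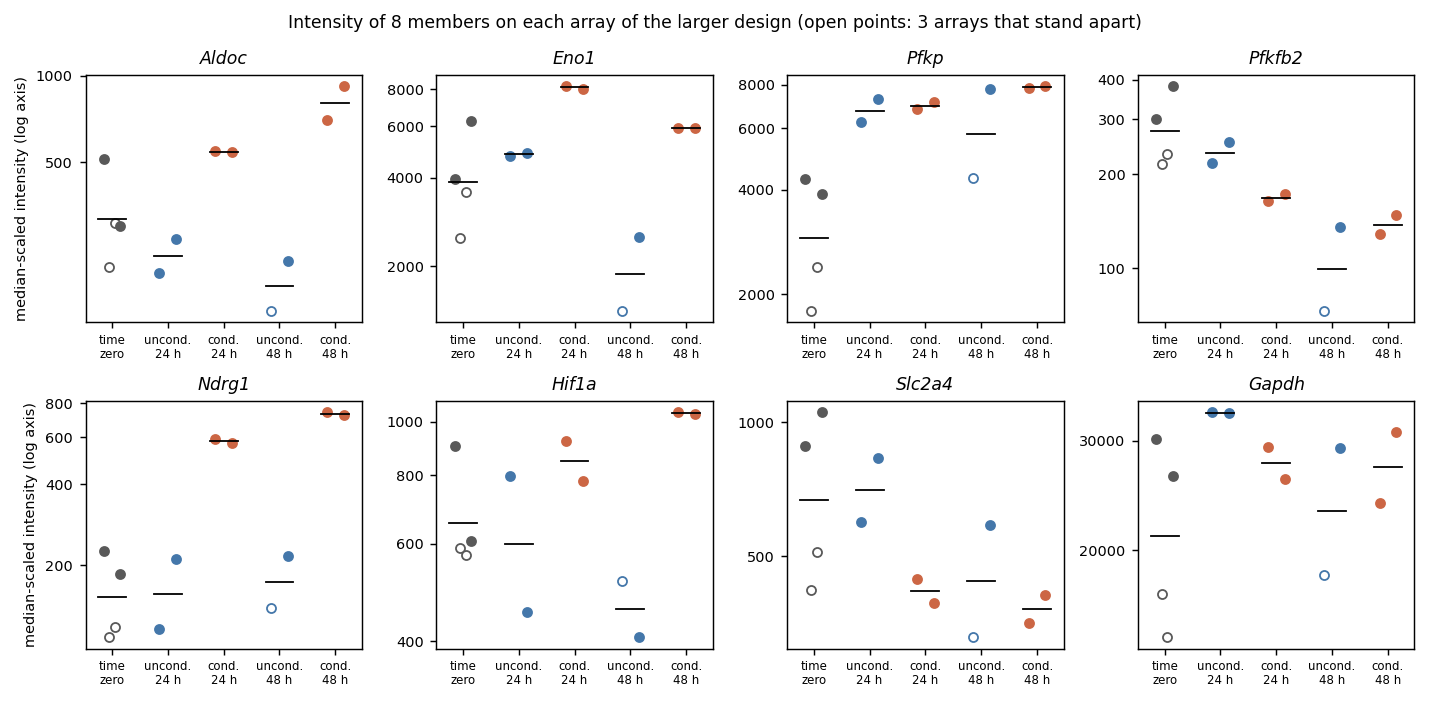
Median-scaled intensity (log axis) of 8 members on the 12 arrays of the larger design, by group: points are arrays, lines are geometric means, and open points are the 3 arrays that stand apart. Conditioned arrays of Ndrg1 sit between 572 and 743, above all others, and those of Gapdh sit in the range of the other groups.

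The other enzymes, taken in the order of the pathway, showed smaller differences between the media. Hk2, the insulin-responsive hexokinase of muscle, read 1702 and 1813 at 24 h and 1583 and 1612 at 48 h in conditioned medium. It read 999 and 1248 at 24 h and 951 and 1305 at 48 h in unconditioned medium, and 1052, 599, 761 and 1356 at time zero. All 4 conditioned arrays lay above the unconditioned ones, and the change of 0.50 ± 0.27 did not pass the test (limma adjusted p = 0.44). Pfkp, the platelet form of phosphofructokinase, which catalyses the committed step, read 6825 and 7135 at 24 h and 7821 and 7955 at 48 h in conditioned medium. It read 6261 and 7273 at 24 h and 4318 and 7764 at 48 h in unconditioned medium, and 4281, 1792, 2393 and 3887 at time zero. The change between the media was small (0.16 ± 0.30, limma adjusted p = 0.84), and all 8 medium arrays lay above the 4 time zero arrays, unconditioned 48 h replicate 2 only narrowly.

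Gapdh, which makes NADH in the middle of the pathway and often serves as a reference gene, read 29303 and 26063 at 24 h and 23844 and 30973 at 48 h in conditioned medium. It read 33335 and 33172 at 24 h and 18279.9 and 29192 at 48 h in unconditioned medium, and 30174, 17033, 14495 and 26356 at time zero. The media overlapped with each other and with time zero, and the change between the media was -0.10 ± 0.29 (limma adjusted p = 0.99). Pgk1, which forms ATP in the next step, read 9737 and 9934 at 24 h and 9898 and 10474 at 48 h in conditioned medium. It read 7281 and 9116 at 24 h and 4170.0 and 6893 at 48 h in unconditioned medium, and 6443, 4489, 6259.6 and 8074 at time zero. Its conditioned arrays were the 4 highest, with a change of 0.51 ± 0.26 that did not pass (limma adjusted p = 0.4).

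Pkm, the pyruvate kinase of muscle and of growing cells, read 27281 and 23127 at 24 h and 24164 and 25680.3 at 48 h in conditioned medium. It read 24590.4 and 27467 at 24 h and 14086 and 20853 at 48 h in unconditioned medium, and 20013, 9916, 10524 and 21013 at time zero. The change was 0.16 ± 0.29 (limma adjusted p = 0.83), and the arrays of the media overlapped. One dimmer Pkm probe gave 1.23 (adjusted p = 0.069) and another -0.02, so the 3 probes of this gene disagreed. Ldha, the subunit of lactate dehydrogenase that favours lactate, read 31442 and 33006 at 24 h and 28426 and 29814 at 48 h in conditioned medium. It read 46318 and 30884 at 24 h and 17172 and 26342 at 48 h in unconditioned medium, and 31206, 21199, 16828 and 26201 at time zero. Its change between the media was 0.03 ± 0.27 (limma adjusted p = 0.93) and the arrays of the media overlapped.

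Among the genes of the enzymes that make and remove fructose 2,6-bisphosphate, the activator of phosphofructokinase, Pfkfb1 (the liver form) was dim, at 70.5 and 42.9 at 24 h and 128 and 92.8 at 48 h in conditioned medium. It read 52.9 and 31 at 24 h and 40.1 and 56.2 at 48 h in unconditioned medium, and 34.3, 8.43, 1.75 and 29.7 at time zero, where replicate 5 lay under the floor of 4.78. At 48 h its conditioned arrays lay above the unconditioned ones, and at 24 h they overlapped. Pfkfb2, the heart form, read 164 and 172 at 24 h and 128 and 148 at 48 h in conditioned medium. It read 216 and 253 at 24 h and 72.9 and 135 at 48 h in unconditioned medium, and 300.2, 215, 232 and 383 at time zero. On 7 of the 8 medium arrays Pfkfb1 lay above all time zero arrays and on 6 of them Pfkfb2 lay below all of these. The genes differed between the media by 0.74 ± 0.63 and -0.09 ± 0.28, neither of which passed. Over the 20 enzyme genes tested, 1 was called higher between the media over both times and none lower (5% beside 0.92% of all probes). The changes ran from -0.53 (Pfkm) to 1.58 with a median of 0.11. The other members lay between -0.53 and 0.63. They are Hk1, Gpi (the isomerase), Pfkl, Pfkm, Aldoa (the muscle aldolase), Pgam1 (phosphoglycerate mutase), Eno3, Ldhb, Pdk1 (a kinase that inhibits pyruvate dehydrogenase) and Pfkfb3 (the inducible form).

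Pfkm and Eno3, the muscle forms of phosphofructokinase and enolase, were lower in conditioned medium at 24 h without passing the test. Pfkm read 1747 and 1653 at 24 h and 2224 and 2562 at 48 h in conditioned medium. It read 2503 and 3684 at 24 h and 1894 and 3255 at 48 h in unconditioned medium, and 3643, 1765, 1909 and 3415 at time zero. At 24 h the conditioned arrays were the lowest of all 12. Its change at 24 h was -0.85 ± 0.42 (limma adjusted p = 0.98), and -0.84 with quantile normalization (adjusted p = 0.021). Eno3 read 769 and 839.9 at 24 h and 1265 and 1441 at 48 h in conditioned medium. It read 1274 and 1649 at 24 h and 914 and 1460.1 at 48 h in unconditioned medium, and 1786, 962, 976 and 1474 at time zero. Its change at 24 h was -0.86 ± 0.38 (limma adjusted p = 0.88), and -0.85 with quantile normalization (adjusted p = 0.023). For both genes the conditioned arrays lay below the unconditioned ones at 24 h and within their range at 48 h. A second Pfkm probe gave 0.22 over both times, against -0.53 for the one used. Of the 10 cardiomyocyte markers all lay below the median of all probes in the same 24 h comparison, from -1.01 to -0.17 with a median of -0.36, and 9 of 10 did over both times, with a median of -0.27. None of them was called, and their part in the lower values of Pfkm and Eno3 was not tested.

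None of the 5 transporter genes was called between the media by limma, at either time or over both (0 also at an unadjusted p under 0.05). Over both times 0.92% of all probes were called, and 11% had an unadjusted p under 0.05. Slc2a1, the widely expressed basal glucose transporter GLUT1, read 5177 and 4761 at 24 h and 4091 and 3868 at 48 h in conditioned medium. It read 3193 and 3818 at 24 h and 2291 and 4327 at 48 h in unconditioned medium, and 4329, 1935, 2079.6 and 3596 at time zero. The media were apart at 24 h and overlapped at 48 h. Slc2a4, the insulin-responsive transporter GLUT4 of muscle and fat, read 445 and 391 at 24 h and 354 and 409 at 48 h in conditioned medium. It read 598 and 832 at 24 h and 328 and 588 at 48 h in unconditioned medium, and 886, 419, 509.7 and 1054 at time zero. Here too the media were apart at 24 h, with the conditioned arrays lower, and overlapped at 48 h. The 2 genes pointed in opposite directions, with 0.34 ± 0.30 for Slc2a1 (limma adjusted p = 0.68) and -0.57 ± 0.31 for Slc2a4 (limma adjusted p = 0.63). Without the 3 arrays that stand apart, Slc2a4 changed by -0.67 with an adjusted p of 0.028.

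Slc16a1, the lactate carrier MCT1 that serves uptake and release, read 4001 and 3119 at 24 h and 3439.9 and 3599 at 48 h in conditioned medium. It read 3324 and 3154 at 24 h and 2515 and 2777 at 48 h in unconditioned medium, and 2570.1, 1365, 1665 and 2599.8 at time zero. The media overlapped at 24 h, and at 48 h the conditioned arrays lay higher. Slc16a3, the lactate exporter MCT4 of glycolytic cells, read 2089 and 2106 at 24 h and 3578 and 4479 at 48 h in conditioned medium. It read 3034 and 4373 at 24 h and 3238 and 5369.5 at 48 h in unconditioned medium, and 3116, 1392, 1610.3 and 2881 at time zero. At 24 h the conditioned arrays of Slc16a3 lay below the unconditioned ones, and at 48 h the arrays overlapped. The changes over both times were 0.18 ± 0.26 for Slc16a1 (limma adjusted p = 0.78) and -0.51 ± 0.30 for Slc16a3 (limma adjusted p = 0.67). Slc16a3 was called lower with quantile normalization (-0.59, adjusted p = 0.016). Slc2a3, the high-affinity transporter GLUT3, was dim and erratic, and its highest values, 384, 273 and 111, fell on the 3 arrays that stand apart.

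Of the 12 hypoxia genes 1, Ndrg1, was called between the media over both times (8.33% beside 0.92% of all probes). The median of the group was -0.10, with 5 above and 7 below the median of all probes. Hif1a itself read 921 and 782 at 24 h and 1040.5 and 1032 at 48 h in conditioned medium. It read 796 and 451 at 24 h and 513 and 406 at 48 h in unconditioned medium, and 903, 591, 574 and 606 at time zero. At 48 h both conditioned arrays of Hif1a were the highest of all 12, while at 24 h the media overlapped. The change over both times was 0.76 ± 0.26 (limma adjusted p = 0.17), and the adjusted p was 0.025 without the 3 arrays that stand apart. Vegfa, which encodes the main angiogenic growth factor, read 4694 and 5138 at 24 h and 5144 and 5286 at 48 h in conditioned medium. It read 5775 and 4270.4 at 24 h and 2232 and 3046 at 48 h in unconditioned medium, and 5839, 3292, 3076 and 4968 at time zero. It differed by 0.41 ± 0.27 (limma adjusted p = 0.54). Its conditioned arrays lay above the unconditioned ones at 48 h and overlapped with them at 24 h, and the other probe of Vegfa gave -0.07.

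Car9, a membrane carbonic anhydrase used as a marker of hypoxic tissue, read 249.6 and 272 at 24 h and 294 and 372 at 48 h in conditioned medium. It read 246 and 420.3 at 24 h and 372 and 552 at 48 h in unconditioned medium, and 201, 135, 166 and 296 at time zero. The media overlapped at each time and the change was -0.46 ± 0.29 (limma adjusted p = 0.7), in the opposite direction to Ndrg1. Bnip3 (a mitophagy receptor), Adm (adrenomedullin, a vasodilator peptide), Egln1 and Egln3, P4ha1 and P4ha2 (collagen prolyl hydroxylases), Ddit4 (an inhibitor of mTORC1) and Higd1a (a mitochondrial protein) lay between -0.19 and 0.67, and none was called. The other Egln3 probe, between 0.0001 and 1415 in intensity, gave 1.97 (limma adjusted p = 0.38), against -0.15 for the one used. Adm read 141 and 9.72 on the unconditioned arrays at 48 h, the first being 1 of the 3 that stand apart. Its change was 0.67 ± 0.57 with all arrays and 1.74 without those 3 (adjusted p = 0.0056).

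At the single times the members' calls were few. At 24 h limma called none of the 37 members between the media (3 at an unadjusted p under 0.05), beside 0.245% of all probes. With quantile normalization it called 4, with Ndrg1 higher and Pfkm, Eno3 and Slc16a3 lower, beside 1.27%, and without the 3 arrays that stand apart Aldoc and Ndrg1 higher and Pfkm and Eno3 lower, beside 3.49%. At 48 h Aldoc was the 1 member called (2.7% of those tested), beside 0.148% of probes, and with quantile normalization Aldoc, Eno1 and Ndrg1 were called, all higher, beside 0.722%. Without the 3 arrays these and Adm were called higher, beside 1.23%. The medium effect at 48 h minus that at 24 h was called by limma for none of the members and for 0% of the probes (0 members and 518 probes at an unadjusted p under 0.05). It was 0.00 ± 0.59 for Ndrg1, 0.73 ± 0.56 for Aldoc and 0.71 ± 0.58 for Eno1, so with these SEs no difference between the times was detectable.

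**Figure D2:**
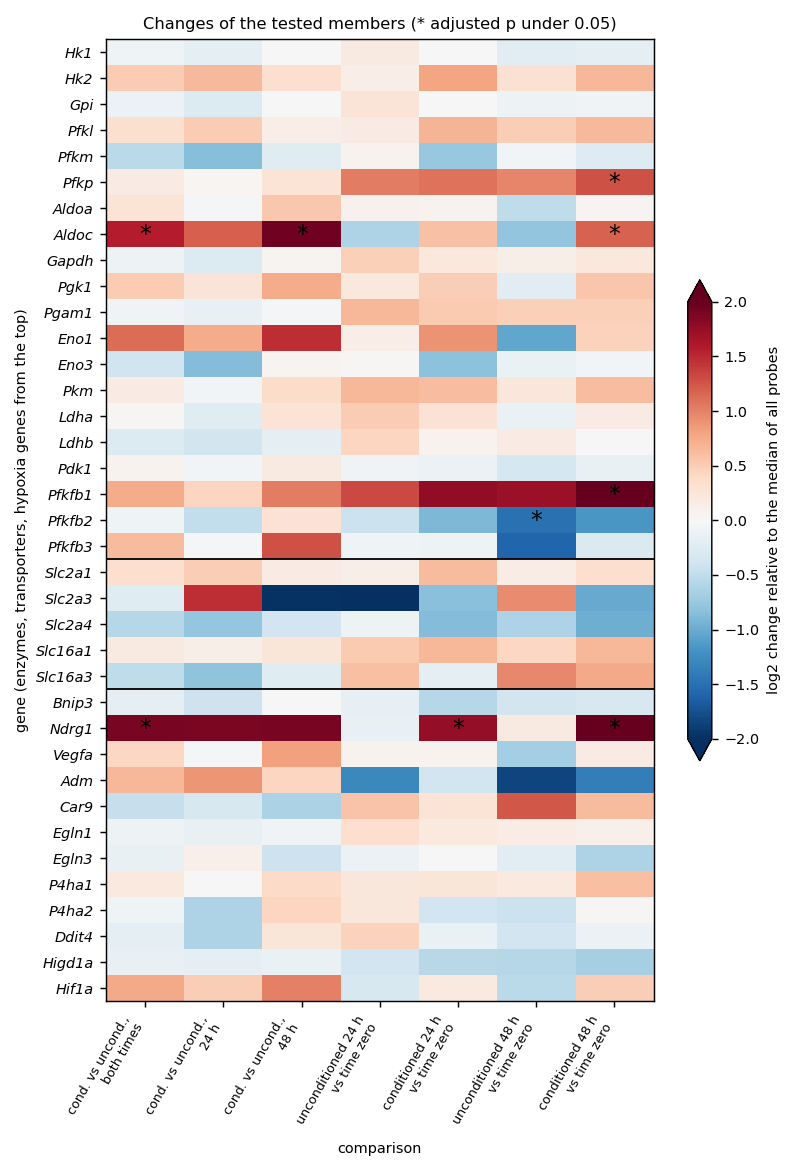
Log2 change relative to the median of all probes (colour, saturated beyond 2 on either side) for the 37 tested members in 7 comparisons, with asterisks at an adjusted p under 0.05. Ndrg1 and Aldoc stand out between the media, and Pfkp and Pfkfb1 are higher against time zero in all 4 medium groups, called in conditioned medium at 48 h.

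The comparisons of each medium with time zero share the same 4 time zero arrays. In unconditioned medium at 24 h limma called no member (6 of 37 at an unadjusted p under 0.05), beside 0.815% of all probes, and with quantile normalization it called Pfkp alone, higher, beside 2.29%. Pfkp was also the 1 member called without the 3 arrays that stand apart, beside 2.7%. In conditioned medium at 24 h Ndrg1 was called, 1 of 37 (2.7%) beside 3.17% of probes. Quantile normalization gave 9 members there, 5 higher (Hk2, Pfkp, Eno1, Pkm and Ndrg1) and 4 lower (Pfkm, Eno3, Slc2a4 and Higd1a), beside 8.42%, and scaling to the 75th percentile gave 5 higher and 5 lower beside 8.1%. Without the 3 arrays 2 were called higher (Pfkp and Ndrg1) and 5 lower (Pfkm, Eno3, Pfkfb2, Slc2a4 and Higd1a) beside 9.83%. With median scaling the members' share was thus near the background. The rise of Ndrg1 did not pass without either of the conditioned 24 h arrays (adjusted p = 0.11 and 0.097).

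In unconditioned medium at 48 h Pfkfb2 fell, by 2.8-fold against time zero (-1.49 ± 0.34, limma adjusted p = 0.023), as the 1 member of 37 called (2.7%) beside 2.9% of probes. Quantile normalization gave 8 members there, 3 higher (Pfkp, Slc16a3 and Car9) and 5 lower (Aldoa, Eno1, Pfkfb2, Vegfa and Higd1a), beside 9.89%, and the 75th percentile gave 3 higher and 4 lower beside 8.89%. When the 3 arrays were left out Pfkp was called higher and Eno1, Pfkfb2 and Adm lower, beside 6.82%. In conditioned medium at 48 h Pfkp, Aldoc, Pfkfb1 and Ndrg1 rose, 4 of 37 (10.8%) beside 6.47% of probes. When all probes of a gene were averaged, 4 members were called there as well, beside 9.44% of genes. Quantile normalization gave 7 higher and 4 lower there beside 13%, and the 75th percentile 7 higher and 3 lower beside 12.7%. The genes called lower under quantile normalization were Pfkfb2, Slc2a4, Egln3 and Higd1a. Leaving the 3 arrays out gave 4 higher and 4 lower, beside 17.3%, with Adm in the place of Egln3 among the lower ones.

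Pfkp changed by 1.28 ± 0.36 in conditioned medium at 48 h, or 2.42-fold (limma adjusted p = 0.023), and its differences from time zero in the other 3 groups were 1.03, 1.08 and 0.98, none of them called. With quantile normalization all 4 of these had an adjusted p of at most 0.0033, and its dimmer probe gave 1.40 in conditioned medium at 48 h with an adjusted p of 0.0096. Pfkfb1 rose in conditioned medium at 48 h by 2.77 ± 0.77 (limma adjusted p = 0.027). Its size rests in part on the floor, since 1 time zero array lay under it. The change was 1.17 with a pseudocount of 0.5 of the median in place of the floor, and 1.81 without the 3 arrays that stand apart, 2 of which are the dimmest time zero arrays of this gene (adjusted p = 0.02). Aldoc changed by 1.17 ± 0.34 (limma adjusted p = 0.025) in conditioned medium at 48 h, and its difference in unconditioned medium, -0.79, was not called. The difference of Pfkfb2 in conditioned medium at 48 h was -1.16 (limma adjusted p = 0.095), and -1.26 with an adjusted p of 0.0024 without the 3 arrays. Its call in unconditioned medium at 48 h did not hold without unconditioned 48 h replicate 2 (-1.25, adjusted p = 0.27) or time zero replicate 3 (-1.51, adjusted p = 0.059), and its other probe gave -0.65 there.

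None of the calls of Pfkp, Aldoc and Pfkfb1 in conditioned medium at 48 h held without either array of that group, with adjusted p between 0.14 and 0.38, while that of Ndrg1 did. Those of Pfkp and Aldoc also did not hold without time zero replicate 5 (adjusted p = 0.064 and 0.057). In that comparison limma called 3 of 20 enzyme genes higher (15%) and 1 of 12 hypoxia genes (8.33%), beside 6.47% of all probes. The share of the hypoxia genes was thus near that of all probes. It called none of the 5 transporters (3 at an unadjusted p under 0.05, beside 19.3% of all probes).

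The differences of Slc2a4 from time zero in conditioned medium were -0.86 at 24 h and -0.97 at 48 h, uncalled with all arrays. Without the 3 arrays that stand apart they were -1.19 and -1.31, with adjusted p of 0.0038 and 0.0013. After 24 h of unconditioned medium the median change of the 37 members was 0.13 with median scaling and -0.04 with quantile normalization, and in conditioned medium 0.08 and -0.01. At 48 h it was -0.13 and -0.15 in unconditioned and 0.16 and 0.10 in conditioned medium. Quantile normalization turned the signs at 24 h and not those at 48 h. Scaling to the 75th percentile turned none of these 4 signs, which is no check on them. A factor per array nearly cancels once the median change of all probes is subtracted.

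Marker genes of other cell types differed between time zero and the medium groups, which differ in both culture time and medium. Of 8 endothelial markers 7 were measured, and of these at 48 h 4 were called higher and 1 lower in unconditioned medium and 6 higher and 1 lower in conditioned medium, and their summed intensity was 973 to 1484 at time zero. At 48 h it was 2165 to 3394 in unconditioned medium and 2910 to 3025 in conditioned medium. Of 10 fibroblast markers 9 were on the array and 5 were tested, of which, at 48 h, unconditioned medium had 3 called higher and conditioned medium 1. They summed to 2468 to 4381 at time zero and, at 48 h, to 6367 to 11047 in unconditioned and 5579 to 6336 in conditioned medium, with Pdgfra at the floor on 8 of 12 arrays and Lum on 7. Of 7 smooth muscle and pericyte markers 6 were tested and 3 were called higher in each medium at 48 h, with Rgs5 at the floor on 9 arrays. They summed to 17844 to 31727 at time zero and, at 48 h, to 32768 to 44106 in unconditioned and 46504 to 48625 in conditioned medium. Between the media over both times no endothelial, fibroblast or smooth muscle marker was called (7, 5 and 6 tested). Of 5 leukocyte markers tested, 1, Cd74, was called lower (20% beside 0.92% of all probes), and Lyz2 was at the floor on all 12 arrays. Their part in the changes of Pfkp, Pfkfb1, Pfkfb2, Aldoc and Ndrg1 against time zero was not tested.

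The ratio of 2 members within an array does not depend on the factor by which that array was scaled, so 8 pairs of family members were followed in this way, chosen after the values were seen and therefore described with no test. Each ratio is given relative to its mean at time zero, and it shows unequal change of the pair, not which member moved. It also rests on 1 probe per gene. Between the media at 48 h a dimmer Ldhb probe changed by 0.80, against -0.19 for the one used and 0.27 for Ldha. The dimmer Pfkm probe changed by 0.81, against -0.23 for the one used and 0.27 for Pfkp. The order of the media at 48 h in these pairs thus depends on the probe. Eno1 over Eno3, the muscle enolase, was 3.48 and 3.10 in conditioned medium at 24 h and 1.52 and 1.34 at 48 h, against 1.21 and 0.961 (24 h) and 0.501 and 0.561 (48 h) in unconditioned medium, with time zero between 0.723 and 1.38. At each time the conditioned pair lay above the unconditioned pair, and in both media the ratio was lower at 48 h than at 24 h.

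Pfkp over Pfkm, the muscle phosphofructokinase, was 3.42 and 3.78 in conditioned medium at 24 h and 3.08 and 2.72 at 48 h, against 1.73 to 2.19 in unconditioned medium and 0.889 to 1.10 at time zero. All medium arrays lay above time zero and all conditioned ones above all unconditioned ones. Slc2a1 over Slc2a4 was 2.76 and 2.89 in conditioned medium at 24 h and 2.74 and 2.24 at 48 h, against 1.27, 1.09, 1.66 and 1.75 in unconditioned medium and 0.81 to 1.16 at time zero. Here too the conditioned arrays lay above all others.

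Aldoc over Aldoa, the muscle aldolase, was 1.27 and 1.60 (24 h) and 1.85 and 2.54 (48 h) in conditioned and 0.526 to 0.852 in unconditioned medium. Pfkl (the liver form) over Pfkm was 2.93 and 2.54 at 24 h in conditioned and 1.20 and 0.953 in unconditioned medium, with a smaller gap at 48 h (2.09 and 1.66 against 1.55 and 1.35). Hk2 over Hk1, the basal hexokinase, was 1.56 to 1.91 in conditioned and 0.766 to 1.46 in unconditioned medium. Slc16a3 over Slc16a1 went the other way, with 0.487 and 0.629 in conditioned against 0.851 and 1.29 in unconditioned medium at 24 h. Ldha over Ldhb, the heart subunit of lactate dehydrogenase, overlapped between the media at 24 h, with 1.02 and 1.33 in conditioned against 1.37 and 0.819 in unconditioned medium. At 48 h the conditioned arrays lay above, with 1.18 and 1.05 against 0.747 and 0.877. None of the 24 h arrays is among the 3 that stand apart.

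**Figure D3:**
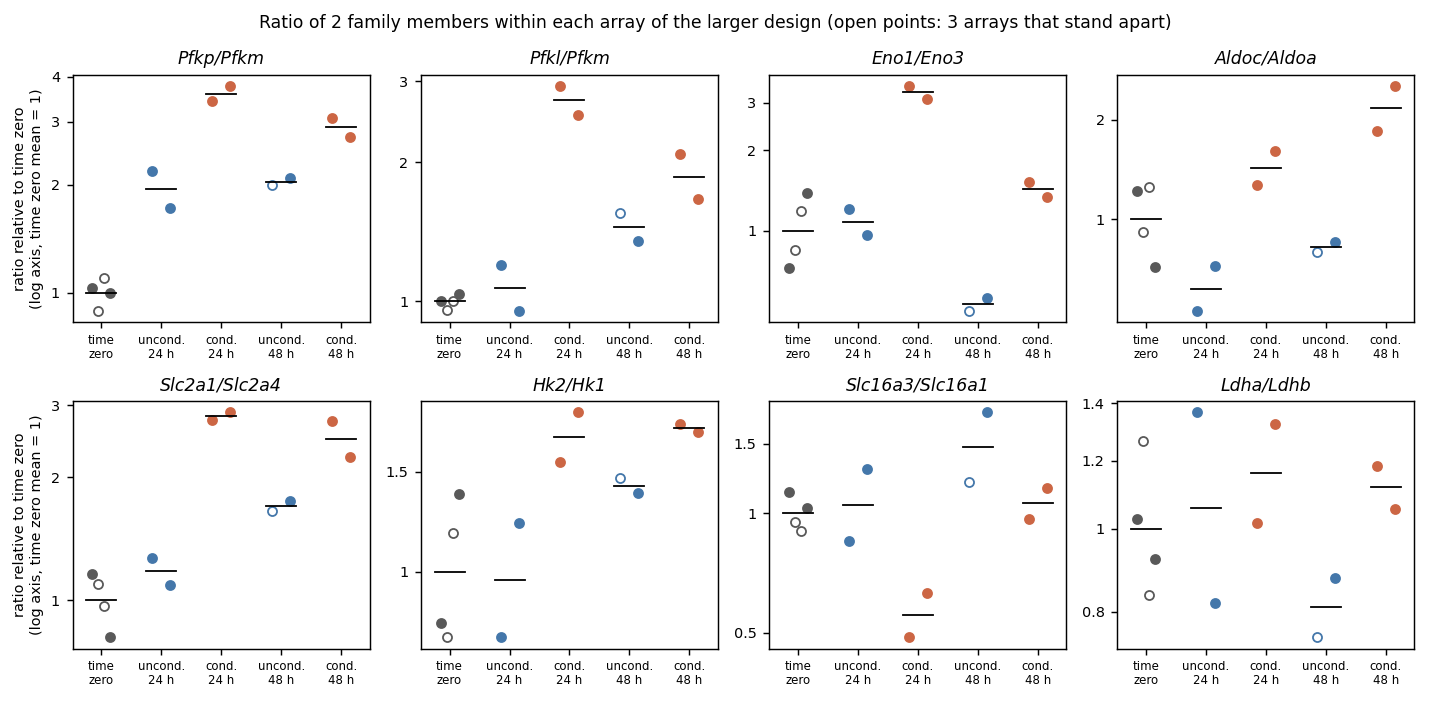
Ratio of intensities of 2 family members within each of the 12 arrays, relative to the geometric mean at time zero (log axis), with open points for the 3 arrays that stand apart and lines at geometric means. Pfkp/Pfkm is 2.72 to 3.78 on conditioned and 1.73 to 2.19 on unconditioned arrays, and the media overlap in Ldha/Ldhb at 24 h.

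The smaller design gave 1 array per medium group, so its values carry no test. On it Ndrg1 read 495 (24 h) and 413 (48 h) in conditioned, 69 and 121 in unconditioned medium and 138 and 108 at time zero. Aldoc read 224 and 237 in conditioned, 91.5 and 107 in unconditioned medium and 143 and 147 at time zero. Both genes were highest on the conditioned arrays, with changes of 2.63 and 1.54 between the media over both times. Both conditioned arrays of this design had a narrower span too (the 75th percentile was 16.3 and 16.6 times the 25th, against 27.2 to 54.1 times on its other 4 arrays). That span moved with the medium, and its part in these changes was not tested.

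Of the 25 members that passed the filter on both designs 20 (80%) had differences of the same sign between the media over both times, beside 64.1% of all 4613 shared genes. The share was 21 of 25 (84%) at 24 h beside 66.3%, and 15 of 25 (60%) at 48 h beside 60.1%. Against time zero it was 20 of 25 in unconditioned (80% beside 73.4%) and 19 of 25 in conditioned medium (76% beside 67.7%) at 24 h. At 48 h it was 15 of 25 in unconditioned (60% beside 76.2%) and 21 of 25 in conditioned medium (84% beside 72.1%). Within arrays, Eno1 over Eno3 was 3.33 and 1.29 relative to time zero in conditioned and 0.973 and 0.428 in unconditioned medium (24 h and 48 h). Slc2a1 over Slc2a4 was 4.40 and 5.73 in conditioned and 1.84 and 1.61 in unconditioned medium. Both pairs thus showed the same order of media as on the larger design. Ldha over Ldhb was 1.27 and 1.33 in conditioned and 1.14 and 1.07 in unconditioned medium. Intensities of Pgk1, highest in conditioned medium on the larger design, had the opposite order here. They were 8601 and 8968 in conditioned, 10452 and 9505 in unconditioned medium (24 h and 48 h), and 10322 to 10624 at time zero. Gapdh departed from the rest on 1 array: it read 221 in conditioned medium at 24 h, against 8716 to 17398 on the other 5 arrays, with no such drop on the larger design.

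**Figure D4:**
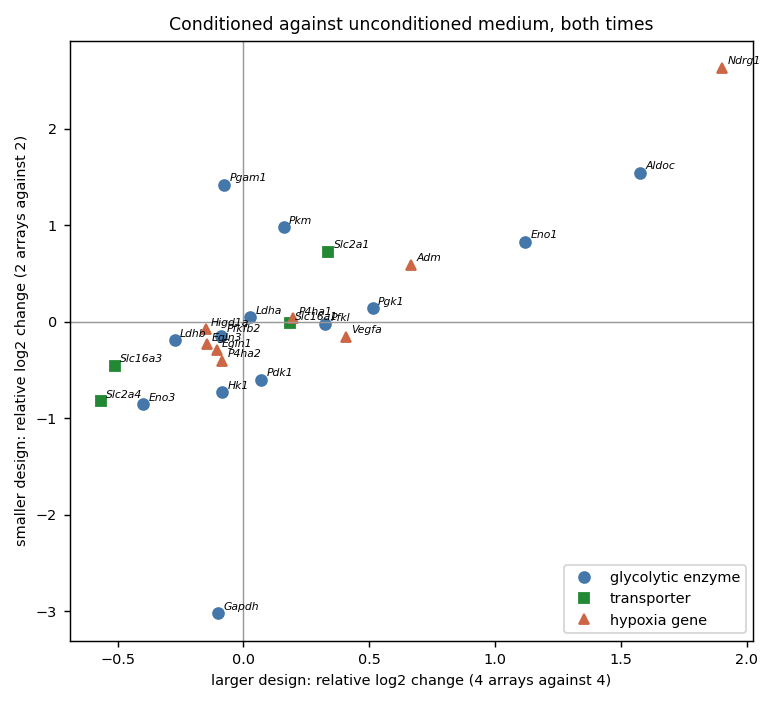
Log2 change between conditioned and unconditioned medium over both times, relative to the median of all probes, on the larger design (horizontal, 4 arrays against 4) and the smaller one (vertical, 2 against 2), for the 25 members that passed the filter on both. Ndrg1, Aldoc and Eno1 lie highest on the horizontal axis and are positive on both, and the low Gapdh value comes from 1 array of the smaller design.

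Further genes of the pathway were taken from lists that were chosen by function. Of 18 tested genes on side branches of glycolysis (glycogen, pentose phosphate and related steps), limma called none between the media over both times (2 at an unadjusted p under 0.05). Fbp2, the muscle fructose bisphosphatase, was the 1 called in any comparison, higher in unconditioned medium at 48 h against time zero (1.33 ± 0.35, limma adjusted p = 0.043, 1 of 18 or 5.56% beside 2.9% of all probes). Of 12 tested genes that decide the fate of pyruvate, such as pyruvate dehydrogenase subunits and their kinases, limma called none in any comparison (at most 3 at an unadjusted p under 0.05).

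Of 31 other tested genes of the hypoxia-inducible factor pathway 1 (3.23%) was called between the media over both times, beside 0.92% of all probes. It was Angptl4, an inhibitor of lipoprotein lipase, with a change of 1.68 ± 0.33 (limma adjusted p = 0.011). Against time zero Angptl4 changed by 1.74 in unconditioned medium at 24 h, and by 3.06 and 2.93 in conditioned medium at 24 h and 48 h, all called. It was not called in unconditioned medium at 48 h. Lox, the enzyme that crosslinks collagen, was called higher in all 4 medium groups against time zero, by 1.87 and 1.24 at 24 h and 2.68 and 2.24 at 48 h in unconditioned and conditioned medium. Igfbp3, which binds insulin-like growth factors, was called higher in conditioned medium at 24 h (1.76) and in both media at 48 h (2.25 and 2.72). The collagen lysyl hydroxylases Plod1 (1.01) and Plod2 (1.50) were called higher in conditioned medium at 48 h, and the transcription factor Bhlhe40 in conditioned medium at 24 h (1.17) and 48 h (1.01). Ankrd37 was called lower in unconditioned medium at 48 h (-1.87). Against time zero, 2 of the 31 were called in unconditioned medium at 24 h (6.45% beside 0.815% of all probes) and 4 in conditioned medium (12.9% beside 3.17%). At 48 h 3 were called in unconditioned (9.68% beside 2.9%) and 6 in conditioned medium (19.4% beside 6.47%). When all probes of a gene were averaged, the shares of all genes called in these 4 comparisons were 1.67%, 4.64%, 4.2% and 9.44%. The alternative settings were followed for the members only, so how the calls of this list depend on them was not tested.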

How the data were processed

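The RNA of 18 samples was biotin labelled and hybridised to 1-colour CodeLink arrays of 2 designs, 12 arrays of 33849 probes and 6 of 9906. The deposited value is the linear intensity of each probe, and its background correction and normalization are not given in the sources used here; array medians were 70.3 to 144 on the larger and 214 to 416 on the smaller design. Each array was scaled to a common median, floored at 0.05 of it and log2 transformed. Probes with a mean above the 30th percentile were tested with limma 3.58.1 (R 4.3.3), fitting all 5 groups with a trended prior (7 residual and 10.4 prior degrees of freedom), and p-values were adjusted over all probes by the Benjamini-Hochberg method. The fit was tested on simulated data. A gene is represented by its probe with the highest mean over all measured probes, chosen before the filter. Of the probes of the larger design 16753 had 1 gene symbol, 165 several and 16931 none in the platform annotation. The precision is limited by the number of arrays.

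The members and lists were chosen with earlier results of these data known. Genes given in detail are all members called in any comparison, 8 chosen for their role (Gapdh, Ldha, Pkm, Hk2, Slc2a1, Slc2a4, Vegfa and Hif1a) and, in each role, the 4 with the smallest p between the media over both times; the other genes named are those called in another setting or list. Alternatives covered scaling, filter, floor, probe averaging, joint fits of the designs and left-out arrays.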

Additional observations from a re-analysis of the deposited data

Results flagged for a closer look

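Among the time zero arrays of the larger design, Hif1a read 903 on replicate 3 and 574 to 606 on the other 3. The gap to the nearest array, divided by the range of the group, was 0.877, above Dixon's critical value for 4 samples. It was the 1 such value among 18 groups of 4 arrays examined, and chance gives about 1 in 20.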

How the results depend on the processing

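Over 22 alternatives, 2910 of 3120 values of the 18 genes given in detail kept their sign and their side of the threshold. Of the rest 79, uncalled in both fits, changed sign, 30 lost a call and 101 gained one, and none that was called in either fit changed direction. The number kept does not measure robustness, since most values were uncalled to begin with. Many could also hardly change in size. The estimate stays nearly the same with only the groups compared, with the 75th percentile, or without an array of a group outside the comparison. Members called between the media over both times numbered 2, and 5 with quantile normalization, 1 with no filter, 8 without the 3 arrays that stand apart and 4 with only the groups compared; leaving out 1 array gave 2 to 3. At 24 h the number was 0, and 4 with quantile normalization, 1 with the 75th percentile, 1 with a filter at the 50th percentile, 1 with probes averaged, 2 with both designs fitted together, 4 without the 3 arrays and 2 with only the groups compared (0 to 1 without 1 array). At 48 h it was 1, and in the same order 3, 3, 2, 2, 3, 4 and 2, with 0 where no filter was used and 2 with a pseudocount (0 to 3 without 1 array).

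Against time zero, the number in unconditioned medium at 24 h was 0, and 1 with quantile normalization, the 75th percentile, or without the 3 arrays (0 to 0 without 1 array). In conditioned medium at 24 h it was 1, and 9 with quantile normalization, 10 with the 75th percentile, 2 with the 50th percentile filter, 4 with both designs and 7 without the 3 arrays (0 to 4 without 1 array). In unconditioned medium at 48 h it was 1, and 8, 7, 2, 4 and 4 in that order, with 0 where no filter was used, 2 with probes averaged and 0 with only the groups compared (0 to 2 without 1 array). In conditioned medium at 48 h it was 4, and 11 with quantile normalization, 10 with the 75th percentile, 1 with no filter, 8 without the 3 arrays and 2 with only the groups compared (1 to 5 without 1 array). Using only the groups compared leaves fewer samples, and the cause of the shifts was not tested in any setting. Where 1 array of a pair is left out, the lone array is assumed to vary like the other groups. The difference of the medium effects between the times had 0 members called throughout. No paired analysis was possible because the labels number no replicates and the numbers used here follow deposition order.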
